A study of Sus scrofa with 9 samples.

Results

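The genes described here handle iron and heme in the vessel wall, and their RNA levels were followed in the abdominal aorta of Tibetan minipigs, a small pig breed. A list of 10 genes was taken by name from a deposited table of 21357 genes: HMOX1, CD163, SLC40A1, SLC11A1, SLC11A2, TFRC, FTH1, STEAP3, STEAP4 and HPX. Of these, 7 were found by gene name, each in 1 row. FTH1 carried no name in the table, and its row was found through the NCBI gene number in its description, so it is given beside the 7 and not counted with them. HMOX1 and SLC11A2 were not analysed here.

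Iron reaches most cells bound to transferrin, which the transferrin receptor carries into endosomes, where a reductase of the STEAP family prepares it for transport into the cytosol. Macrophages also take up iron as heme, from hemoglobin that has bound haptoglobin and from free heme that has bound hemopexin. What a cell does not use is stored in ferritin, a shell of heavy and light chains, or is exported through ferroportin. In the arterial wall, macrophages clear red cell remnants, and iron-loaded macrophages are a known feature of plaques in which blood has leaked.

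The 9 libraries fell into 3 groups of 3 by their labels. NC pigs received a normal diet for 24 weeks, H8 pigs a high-fat diet for 8 weeks (labelled hypercholesterolemia) and H24 pigs the high-fat diet for 24 weeks (labelled atherosclerosis). The pigs of the NC and H24 groups were males bought at 3 to 4 months of age and adapted for 4 weeks, and the diet of the H24 group contained 15% shortening oil, 1.5% cholesterol and 10% egg yolk powder. The methods do not describe the H8 group, for which no controls fed for 8 weeks were analysed here, so that duration of diet, age and time of sampling cannot be told apart in it. Nothing in the labels pairs pigs across groups.

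The total count was 44094263 to 75787978 per library, and 3 counts, taken as the smallest signal, stood for 0.0396 to 0.0680 CPM, which is the count scaled to a common library total. These floors cover counting error only. H24 replicate 3 stood apart. Across genes, its log2 CPM had a Pearson's r of 0.738 to 0.871 with the other libraries, while all other pairs had 0.898 to 0.963. Its smooth muscle markers summed to 1931 FPKM, against 9185 to 15569 FPKM in the other libraries, and its macrophage markers to 5793 FPKM, against at most 718. Most fold changes and calls that rest on it are given with and without it. FPKM is the number of fragments per kilobase of transcript, scaled to the number of mapped fragments, the only scale on which levels are compared between genes below.

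Between H24 and NC, CD163, SLC11A1 and STEAP3 rose and HPX fell. Between H24 and H8, a comparison that shares the H24 libraries with the former, CD163, SLC11A1 and STEAP3 rose, and between H8 and NC no gene of the list passed the test. The comparisons ask how the transcripts of the wall differ with hypercholesterolemia and with established lesions. A gene was called by the thresholds of the study, that is a log2 fold change above 1 or below -1 and a p-value, before adjustment, under 0.05 in edgeR's quasi-likelihood test on the counts. Fold changes on the log2 scale are given with their standard error (SE). By these, 4 of the 7 genes were called in H24 against NC, where 11.5% of all 14828 tested genes were called in either direction. In H24 against H8, 3 of the 7 were called, with 10.3% of all 14788 tested genes (3.05% lower). Between H8 and NC, 0 of the 7 were called, with 7.39% of all 14336 tested genes, and 0 of the 7 had an unadjusted p under 0.05. All 7 genes and FTH1 passed the filter on low values in each comparison.

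After Benjamini-Hochberg adjustment over all tested genes, 0 of the 7 passed in any comparison with edgeR, the lowest adjusted p being 0.132. Of all tested genes, 0.0279% passed with a log2 fold change beyond 1 in H8 against NC, 0% in H24 against NC and 0.0135% in H24 against H8. With DESeq2 the adjusted p was under 0.05 for 3 of the 7 in H24 against NC (CD163, SLC11A1 and STEAP3), for 2 in H24 against H8 (SLC11A1 and STEAP3) and for 0 in H8 against NC. DESeq2 passed far more of all tested genes than edgeR. With a log2 fold change also beyond 1, these were 954 of 14828, 650 of 14788 and 616 of 14336, respectively. DESeq2 was not fitted without H24 replicate 3. The median log2 fold change of the 7 genes was 1.24 in H24 against NC, where that of all tested genes was 0.01. It was 1.49 in H24 against H8 (all genes 0.04) and -0.25 in H8 against NC (all genes 0.01). With H24 replicate 3 left out, the medians of the 7 genes were 0.48 in H24 against NC and 0.49 in H24 against H8. The plot of FPKM by library shows how far each group spread.

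**Figure D1:**
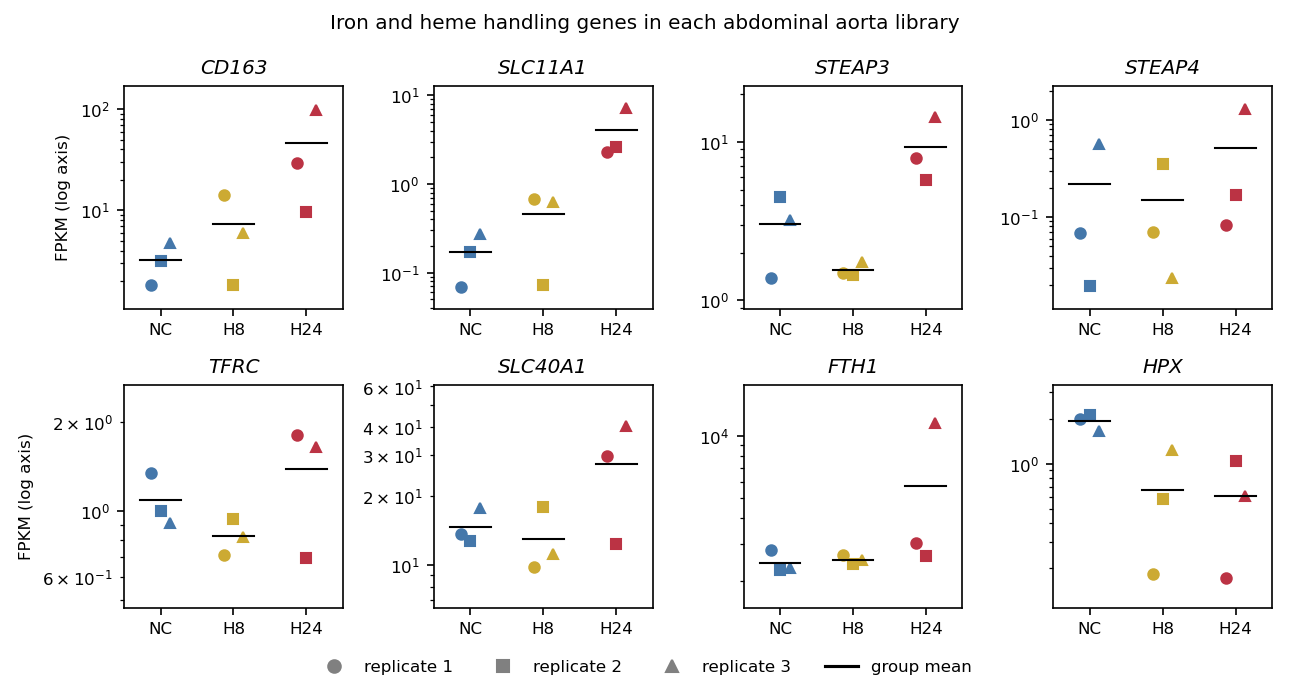
FPKM (log axis) of the 8 genes in each of the 9 libraries, by group, with the replicate number as the symbol and the group mean as a line. CD163, SLC11A1 and STEAP3 lie higher in each H24 library than in each NC library, HPX lies lower, and FTH1 stands out in H24 replicate 3 alone.

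CD163 (ENSSSCG00000033146) encodes the scavenger receptor with which monocytes and macrophages take up hemoglobin bound to haptoglobin, and it lies on chromosome 5 of Sscrofa11.1 (63300146 to 63334537, plus strand). Its FPKM was 1.83, 3.16 and 4.73 in NC replicates 1 to 3. It was 14.1, 1.82 and 5.96 in H8 and 29.3, 9.53 and 99.2 in H24. Every H24 library was above every NC library, while the H8 libraries ranged from the NC level to above the lowest H24 library. In H24 against NC, CD163 rose 13.9-fold (log2 fold change 3.80, SE 0.88, adjusted p = 0.136, edgeR's quasi-likelihood test). Without H24 replicate 3 the log2 fold change was 2.53, and the gene was still called. In H24 against H8 the log2 fold change was 2.48 (SE 0.97, adjusted p = 0.343). That call was lost without H24 replicate 3, at 1.25, and also without H24 replicate 1, H8 replicate 2 or H8 replicate 3. In H8 against NC it was 1.27 (SE 0.66, adjusted p = 0.416), which did not pass. Without H8 replicate 2 it was 1.71, and the gene was called.

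HPX (ENSSSCG00000014626) encodes hemopexin, the plasma protein that binds free heme, made mainly by the liver. It lies on chromosome 9 (3288288 to 3297049, plus strand). Its FPKM was 1.97, 2.11 and 1.66 in NC. In H8 it was 0.181, 0.581 and 1.23, and in H24 0.172, 1.04 and 0.608. The 6 libraries of pigs on the high-fat diet were all below the 3 NC libraries, with no overlap in either comparison. Among all tested genes, 7.8% were lower without overlap in H24 against NC and 15.9% in H8 against NC. HPX was a low transcript, with 176 to 261 counts per NC library, 21 to 151 per H8 library and 19 to 75 per H24 library. In H24 against NC it fell by 1.66 on the log2 scale (SE 0.68, adjusted p = 0.348, edgeR's quasi-likelihood test). Between H8 and NC the log2 fold change was -1.39 (SE 0.63, adjusted p = 0.362), with an unadjusted p of 0.0619 from edgeR that missed the threshold. HPX was called lower there in 5 of 16 alternatives, namely with library size only, DESeq2, limma on log2(FPKM + 0.1), the replicate block and without H8 replicate 3, where the log2 fold change was -2.09. The call in H24 against NC was near the threshold, with an unadjusted p of 0.0448 from edgeR. It was lost in 7 of 16 alternatives, among them all 9 libraries in 1 fit (-1.65) and limma on log2(FPKM + 1) (-0.89). The others were leaving out any of H24 replicates 1 and 3 and NC replicates 1, 2 and 3. In these the log2 fold change was -1.77 to -1.21, and the highest edgeR p was 0.106. H24 and H8 had a log2 fold change of -0.28 (SE 0.91, adjusted p = 0.908).

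Markers of liver cells, 8 in number, were given beside HPX. ALB, which encodes albumin, was at 0.0175 to 0.372 FPKM in NC, 0.00669 to 0.0270 in H8 and 0.0444 to 0.357 in H24. The markers summed to 11.13 to 23.1 FPKM in NC, 7.87 to 15.96 in H8 and 9.99 to 22.9 in H24, most of it APOA1. In H24 against NC, 0 of the 6 tested passed. In H8 against NC, 2 of the 3 tested were called lower, namely ALB and F2, where 2.27% of all tested genes were called lower. Markers of adipocytes, 7 in number, summed to 110 to 181 FPKM in NC, 69.3 to 147 in H8 and 74.6 to 220 in H24, and they did not move together. Of the 6 tested in H8 against NC, 3 were called lower (ADIPOQ, PLIN1 and CIDEC) and 0 higher, against 2.27% and 5.11% of all tested genes. Of the 7 tested in H24 against NC, 2 were called higher (LEP and LPL) and 0 lower, against 9.95% and 1.52% of all tested genes. Without H24 replicate 3, 2 adipocyte markers were called higher and 1 lower. LPL was at 26.2, 7.13 and 131 FPKM in H24 replicates 1 to 3. ADIPOQ was at 4.44, 14.6 and 6.83 FPKM in NC, at 0.0789 to 0.106 in H8, and at 7.24, 0.0705 and 0.416 in H24. FABP4, the most abundant of them on average, was highest in H8 replicate 2, at 139 FPKM. The part of liver or adipose markers in the HPX result was not tested.

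SLC11A1 (ENSSSCG00000039798), also called NRAMP1, encodes a transporter of divalent metals in the phagosome membrane of macrophages and neutrophils. It lies on chromosome 15 (120433736 to 120447490, plus strand), inside the span of CFAP65 on the minus strand, whose mean FPKM was 0.00241. Whether the counting used strand is not given in the sources used here. The overlap is one of gene spans, and exons were not compared, so how far reads of both genes could mix is not known. The FPKM of SLC11A1 was 0.0692, 0.172 and 0.275 in NC. It was 0.683, 0.0721 and 0.622 in H8 and 2.27, 2.65 and 7.22 in H24. The NC values rest on 18, 50 and 68 counts and those of H24 on 569, 443 and 1661. H24 did not overlap with NC or H8, and H8 replicate 2 sat at the level of NC. Of the 8 genes in the 3 comparisons, SLC11A1 had the largest log2 fold change, with a 22.8-fold rise in H24 against NC (log2 fold change 4.51, SE 0.73, adjusted p = 0.132, edgeR's quasi-likelihood test). With H24 replicate 3 left out, it was 3.79. In H24 against H8 the log2 fold change was 2.99 (SE 0.84, adjusted p = 0.336), and 2.29 without H24 replicate 3. Both calls held in all 16 alternatives tried, where the lowest values, on log2(FPKM + 1), were 1.98 and 1.69. Between H8 and NC it was 1.48 (SE 0.84, adjusted p = 0.459). Without H8 replicate 2 it was 1.97, and the gene was called.

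STEAP3 (ENSSSCG00000029304) encodes the endosomal reductase that turns the ferric iron released from transferrin into ferrous iron. It lies on chromosome 15 as well (24699833 to 24785373, plus strand). Its FPKM was 1.39, 4.47 and 3.20 in NC, 1.48, 1.44 and 1.75 in H8, and 7.91, 5.76 and 14.3 in H24. The H8 libraries were tightly grouped near the lowest NC library, and the H24 libraries were all above both other groups. STEAP3 rose 5.25-fold in H24 against H8 (log2 fold change 2.39, SE 0.36, adjusted p = 0.286, edgeR's quasi-likelihood test) and 3.01-fold in H24 against NC (log2 fold change 1.59, SE 0.52, adjusted p = 0.257). Without H24 replicate 3 these log2 fold changes were 1.957 and 1.13, and both calls held in all 16 alternatives. In H8 against NC the log2 fold change was -0.83 (SE 0.41, adjusted p = 0.391). Leaving out NC replicate 1, the lowest of its group, brought it to -1.19, which passed.

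STEAP4 (ENSSSCG00000015299) encodes a related reductase of iron and copper that is abundant in adipose tissue. It lies on chromosome 9 (68544721 to 68570585, minus strand). It was scarce and uneven, at 0.0684, 0.0197 and 0.565 FPKM in NC, 0.0696, 0.353 and 0.0238 in H8, and 0.0819, 0.168 and 1.29 in H24. In each group 1 library was well above the other two, so the groups overlapped in all comparisons. The log2 fold change was 1.24 in H24 against NC (SE 1.39) and -0.80 without H24 replicate 3, and 1.49 in H24 against H8 (SE 1.302). Between H8 and NC it was -0.32 (SE 1.32). None of these passed, and an SE of this size leaves the direction undetermined.

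TFRC (ENSSSCG00000011848), the transferrin receptor, brings transferrin-bound iron into the cell. Its gene on chromosome 13 (133878636 to 134000847, plus strand) overlaps by 7128 bp with ZDHHC19 on the same strand, which had a mean FPKM of 0.0221. Its FPKM was 1.34, 1.005 and 0.915 in NC, 0.710, 0.938 and 0.819 in H8, and 1.81, 0.692 and 1.64 in H24. H24 held both the highest and the lowest library of all. The log2 fold change was 0.32 in H24 against NC (SE 0.39), 0.54 in H24 against H8 (SE 0.40) and -0.25 in H8 against NC (SE 0.26), with adjusted p-values of 0.553 to 0.771 (edgeR's quasi-likelihood test). Over the alternatives tried, it stayed between 0.11 and 0.63 in H24 against NC.

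SLC40A1 (ENSSSCG00000027157) encodes ferroportin, which exports iron from macrophages and other cells. It lies on chromosome 15 (94115562 to 94161781, minus strand). Its FPKM was 13.6, 12.7 and 17.7 in NC, 9.72, 17.9 and 11.2 in H8, and 29.9, 12.3 and 40.4 in H24. H24 replicates 1 and 3 were above all other libraries, while H24 replicate 2 was below the whole NC group. The log2 fold change was 0.88 in H24 against NC (SE 0.42, adjusted p = 0.411) and 0.86 in H24 against H8 (SE 0.47, adjusted p = 0.432), neither of which passed in edgeR's quasi-likelihood test. Without H24 replicate 2 the gene was called in both, at 1.23 and 1.19. It was also called in the latter without H8 replicate 2, at 1.26, and with scaling to library size only, at 1.11. With H24 replicate 3 left out, it was at 0.48 and 0.49. In H8 against NC it was -0.02 (SE 0.29).

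FTH1 (ENSSSCG00000014540) encodes the heavy chain of ferritin, which oxidizes iron as it enters the shell. The row lies on chromosome 2 (9535046 to 9538043, plus strand). FTH1 was by far the most abundant of the 8 genes, at 2805, 2251 and 2299 FPKM in NC, 2655, 2405 and 2510 in H8, and 3034, 2631 and 11554 in H24. In H24 replicate 3 it ranked 1 among all genes of the library and took 3.71% of all FPKM, against 0.812% to 1.10% in the other libraries. The other 8 libraries lay close together. Its log2 fold change was 1.21 in H24 against NC (SE 0.61, adjusted p = 0.443) and 0.99 in H24 against H8 (SE 0.63, adjusted p = 0.499), neither of which passed in edgeR's quasi-likelihood test. Without H24 replicate 3 these were 0.18 and -0.01. The gene was called in H24 against NC under 3 of 16 alternatives. These were leaving out H24 replicate 2 (1.55), DESeq2 (1.21) and all 9 libraries in 1 fit (1.21). Between H8 and NC the log2 fold change was 0.18 (SE 0.16, adjusted p = 0.645). Ferritin genes have near-identical copies in mammalian genomes, so that the counting could have split or shared reads of FTH1 and FTL.

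**Figure D2:**
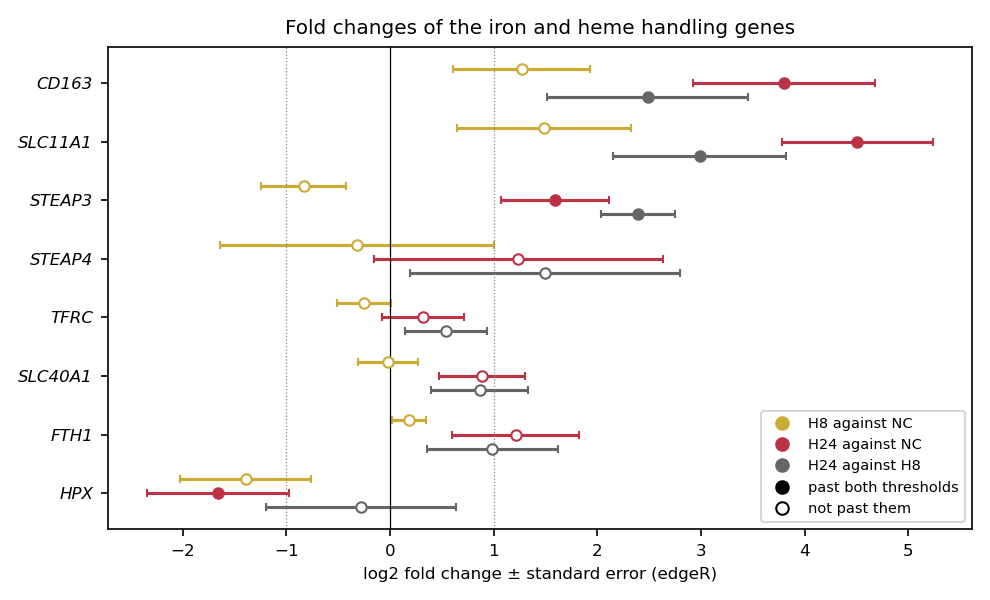
Log2 fold change (x axis) with its standard error from edgeR for the 8 genes in the 3 comparisons, with filled symbols for those past both thresholds and dotted lines at -1 and 1. CD163 (3.80) and SLC11A1 (4.51) lie farthest to the right in H24 against NC, and HPX (-1.66) is the filled symbol on the left.

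For a single gene in 3 libraries against 3, an exact permutation test on log2(FPKM + 0.1), two-sided, cannot go below p = 0.1. This value was reached by CD163, SLC11A1, STEAP3 and HPX in H24 against NC, by SLC11A1 and STEAP3 in H24 against H8, and by HPX in H8 against NC. These are the 4, 2 and 1 cases in which the groups did not overlap. Among all tested genes, 20.6%, 21.8% and 22.8% did not overlap in the 3 comparisons, respectively. Split by direction, 12.8% lay higher in H24 against NC, 15.5% higher and 6.31% lower in H24 against H8, and 6.91% higher in H8 against NC.

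By mean FPKM, the order of levels in NC was FTH1 (2452), SLC40A1 (14.7), CD163 (3.24), STEAP3 (3.02), HPX (1.91), TFRC (1.09), STEAP4 (0.218) and SLC11A1 (0.172). The libraries of CD163 and STEAP3, of STEAP3 and HPX, and of STEAP4 and SLC11A1 overlapped, so these neighbours did not differ beyond their spread. In H24, FTH1 (5740) was followed by CD163 (46.0), SLC40A1 (27.5), STEAP3 (9.33) and SLC11A1 (4.05), and of the latter 4 each overlapped with the next but SLC11A1. TFRC (1.38), HPX (0.605) and STEAP4 (0.514) came last and overlapped. In H8 the order was FTH1 (2524), SLC40A1 (12.9), CD163 (7.29), STEAP3 (1.55), TFRC (0.822), HPX (0.662), SLC11A1 (0.459) and STEAP4 (0.149). There SLC40A1 overlapped with CD163, as did each of the last 4 genes with its neighbour.

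Macrophage markers moved with the diet groups. A list of 14, among them CD68, CSF1R, C1QA and TYROBP, summed to 63.1 to 78.7 FPKM in NC, 81.9 to 495 in H8 and 439 to 5793 in H24. GPNMB, 1 of the 14, was at 2700 FPKM in H24 replicate 3 and at 4.55 to 7.22 in NC. The make-up of the sum therefore shifted between libraries, which bears on the ratios below. None of the 14 was at 0 in all libraries. In H24 against NC all 14 were called higher by the same thresholds, in H24 against H8 12 of 14, and in H8 against NC 10 of the 13 tested. Among all tested genes, 9.95%, 7.22% and 5.11% were called higher in these comparisons, respectively. With H24 replicate 3 left out, 12 of the markers were called higher in H24 against NC and 2 in H24 against H8. Among all genes tested then, 946 of 14578 and 547 of 14589 were called higher, respectively. H8 replicate 2, which had the lowest CD163 and SLC11A1 of its group, also had the lowest macrophage sum there, 81.9 FPKM. Per 100 FPKM of these markers, CD163 was at 2.32, 4.75 and 7.50 FPKM in NC, 2.85, 2.22 and 2.53 in H8, and 4.08, 2.17 and 1.71 in H24, and the groups overlapped. SLC11A1 was at 0.0879 to 0.435 FPKM per 100 FPKM of markers in NC, 0.0881 to 0.265 in H8 and 0.125 to 0.602 in H24, overlapping too.

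STEAP3 was at 1.77, 6.71 and 5.07 FPKM per 100 FPKM of markers in NC, 0.298, 1.76 and 0.743 in H8, and 1.10, 1.31 and 0.247 in H24. These ratios were chosen after the values were seen. For STEAP3, NC lay above both diet groups, though NC replicate 1 and H8 replicate 2 differed by little (exact permutation test, two-sided, p = 0.1, the smallest possible). The marker sum, by which STEAP3 was divided, was higher in every diet library than in every NC library. In H24 the ratio was lower although STEAP3 itself was higher than in NC, so the ratio does not show a fall of STEAP3. In whole tissue, more cells of a type and more RNA per cell cannot be told apart, and the part of macrophage number in these changes was not tested. Neutrophil markers, 7 in number, summed to 0.518 to 0.665 FPKM in NC, 3.07 to 4.49 in H8 and 5.15 to 62.0 in H24. CSF3R made up most of these sums in the diet groups, at 2.21 to 4.32 FPKM in H8 and 4.55 to 46.8 in H24, while S100A8 was at 0 in all H8 libraries and at 0.144 to 0.247 FPKM in NC. MPO was at 0 in all libraries but H24 replicate 3. Of the neutrophil markers tested, 1 of 2 was called higher in H8 against NC and 4 of 6 in each H24 comparison. Among all tested genes, 5.11% were called higher in H8 against NC, 9.95% in H24 against NC and 7.22% in H24 against H8. Without H24 replicate 3, 1 neutrophil marker was called higher in H24 against NC and 0 in H24 against H8. Among all genes tested then, 946 of 14578 and 547 of 14589 were called higher, respectively. Markers of T and B cells, 9 in number, summed to 5.37 to 6.09 FPKM in NC, 1.999 to 4.50 in H8 and 13.2 to 26.7 in H24. The lower sum in H8 came from CD79A, at 4.44 to 5.46 FPKM in NC and 1.25 to 3.59 in H8. Of the 4 tested in H8 against NC, 1 was called higher (CD2) and 0 lower. In H24 against NC 4 of the 7 tested were called higher (9.95% of all tested genes), and in H24 against H8 6 of 6 (7.22%). Without H24 replicate 3, 2 and 4 were called higher, respectively. Red cell markers, which bear on the heme genes, summed to 31.4 to 128 FPKM in NC, 46.5 to 206 in H8 and 20.5 to 255 in H24, and 0 of the 4 tested passed in any comparison.

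**Figure D3:**
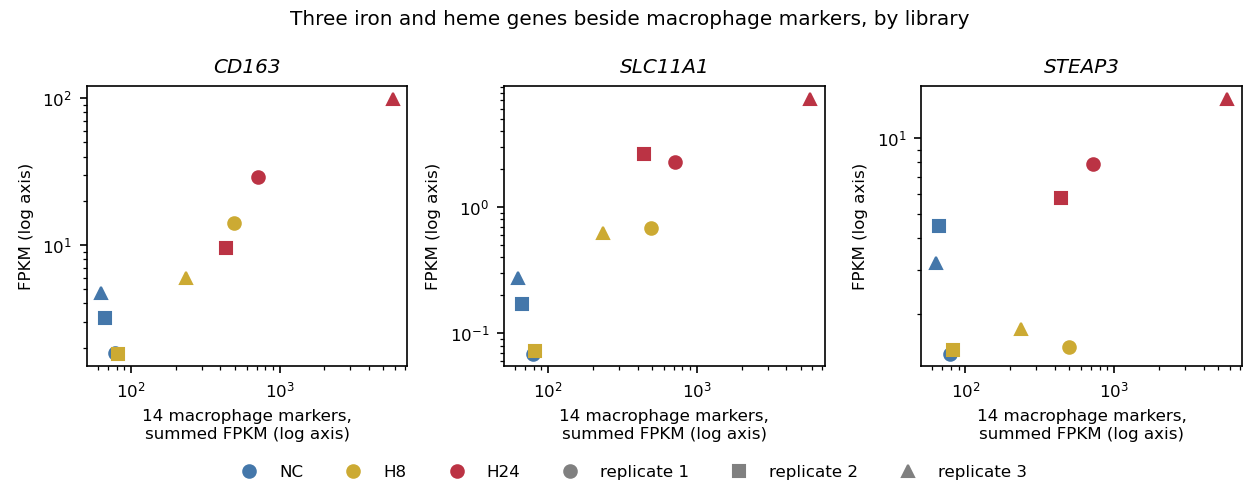
FPKM of CD163, SLC11A1 and STEAP3 (y axes, log) against the summed FPKM of 14 macrophage markers (x axis, log) in the 9 libraries, coloured by group. H24 replicate 3 lies at the far right at 5793 FPKM, and H8 replicate 2 lies with the NC libraries at 81.9 FPKM.

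Other genes of iron and heme handling were described from 4 lists with 56 genes, of which 54 had a row. All calls in them were upward in the H24 comparisons: 5 of the 45 tested genes in H24 against NC (9.95% of all tested genes were called higher) and 7 of 44 in H24 against H8 (7.22%). In H8 against NC, 1 of 44 was called, BACH1 (5.11% were called higher). Without H24 replicate 3, 4 genes of the lists were called in each of the H24 comparisons, all higher. Among all genes tested then, 946 of 14578 were called higher in H24 against NC and 547 of 14589 in H24 against H8. With edgeR 0 of the list genes passed the adjusted threshold in any comparison. An unadjusted p under 0.05 was found for 8 in H24 against NC, 9 in H24 against H8 and 8 in H8 against NC. Over all tested genes, 2055 of 14828, 2029 of 14788 and 2124 of 14336 had such a p, in the same order. With DESeq2, 4 list genes had an adjusted p under 0.05 in H24 against NC and 0 in the other 2 comparisons. Over all genes, 954 of 14828 did so in H24 against NC with a log2 fold change also beyond 1. The median log2 fold change of the list genes was 0.29, 0.32 and 0.02, in the same order of comparisons. Without H24 replicate 3 it was 0.06 in H24 against NC and -0.06 in H24 against H8.

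Among genes of heme uptake, breakdown and export, FLVCR2, a membrane transporter, had 0.590, 0.565 and 0.265 FPKM in NC. It had 1.25, 0.474 and 0.656 in H8 and 1.73, 1.73 and 8.79 in H24. It rose in H24 against NC (log2 fold change 3.08, SE 0.78, adjusted p = 0.157, edgeR's quasi-likelihood test) and in H24 against H8 (2.18, SE 0.74), where the call was lost without H24 replicate 3 (0.97). HP, the hemoglobin-binding haptoglobin, rose in H24 against H8 (1.06, SE 0.34). BLVRB, a biliverdin reductase that acts after heme is opened, had 33.4 FPKM in H24 replicate 3 and 5.55 to 9.78 in the other libraries. Its log2 fold change of 1.26 in H24 against NC (SE 0.61) did not pass, and it was 0.28 without H24 replicate 3. HMOX2, the constitutive heme oxygenase, had log2 fold changes between -0.15 and 0.07, and none passed. Of the heme synthesis list, ABCB10, a mitochondrial transporter, was called in H24 against NC (1.89, SE 0.66), and it was at 0.71 without H24 replicate 3, which is not past the threshold.

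Among genes of iron uptake, reduction and export, CP, the plasma ferroxidase ceruloplasmin, was called higher in H24 against NC (1.60, SE 0.67, adjusted p = 0.354, edgeR). The groups overlapped, and without H24 replicate 1 the log2 fold change was 0.59. SLC39A8, a metal importer, was called higher in H24 against H8 (1.68, SE 0.57). Among genes of storage and its control, HFE, which binds the transferrin receptor and is altered in hereditary iron overload, had 0.889, 1.14 and 0.838 FPKM in NC, 1.39, 1.25 and 1.04 in H8, and 3.60, 1.57 and 10.8 in H24. It was called higher in H24 against NC (2.45, SE 0.68, adjusted p = 0.191, edgeR) and against H8 (1.90, SE 0.65), and the latter was lost without H24 replicate 3 (0.88). BMP6, a signal that raises hepcidin in liver, and SMAD6, an inhibitor of BMP signals, were called higher in H24 against H8 (1.08 and 1.05) with overlapping groups. BACH1, a repressor of HMOX1 that heme inactivates, was called higher in H8 against NC (1.54, SE 0.64). That call rested on H8 replicate 2, at 7.45 FPKM against 1.60 and 1.68 in the others of its group, and the log2 fold change was 0.28 without it. With each of the 6 libraries of a comparison left out in turn, the calls of FLVCR2 and HFE in H24 against NC were lost 0 times and that of FTL 1 time, without NC replicate 3. The other calls of these lists were lost on leaving out 2 to 4 of the 6 libraries. The transcripts of hepcidin (HAMP), hemojuvelin (HJV), transferrin receptor 2 (TFR2) and lactoferrin (LTF) were too low to be tested.

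**Figure D4:**
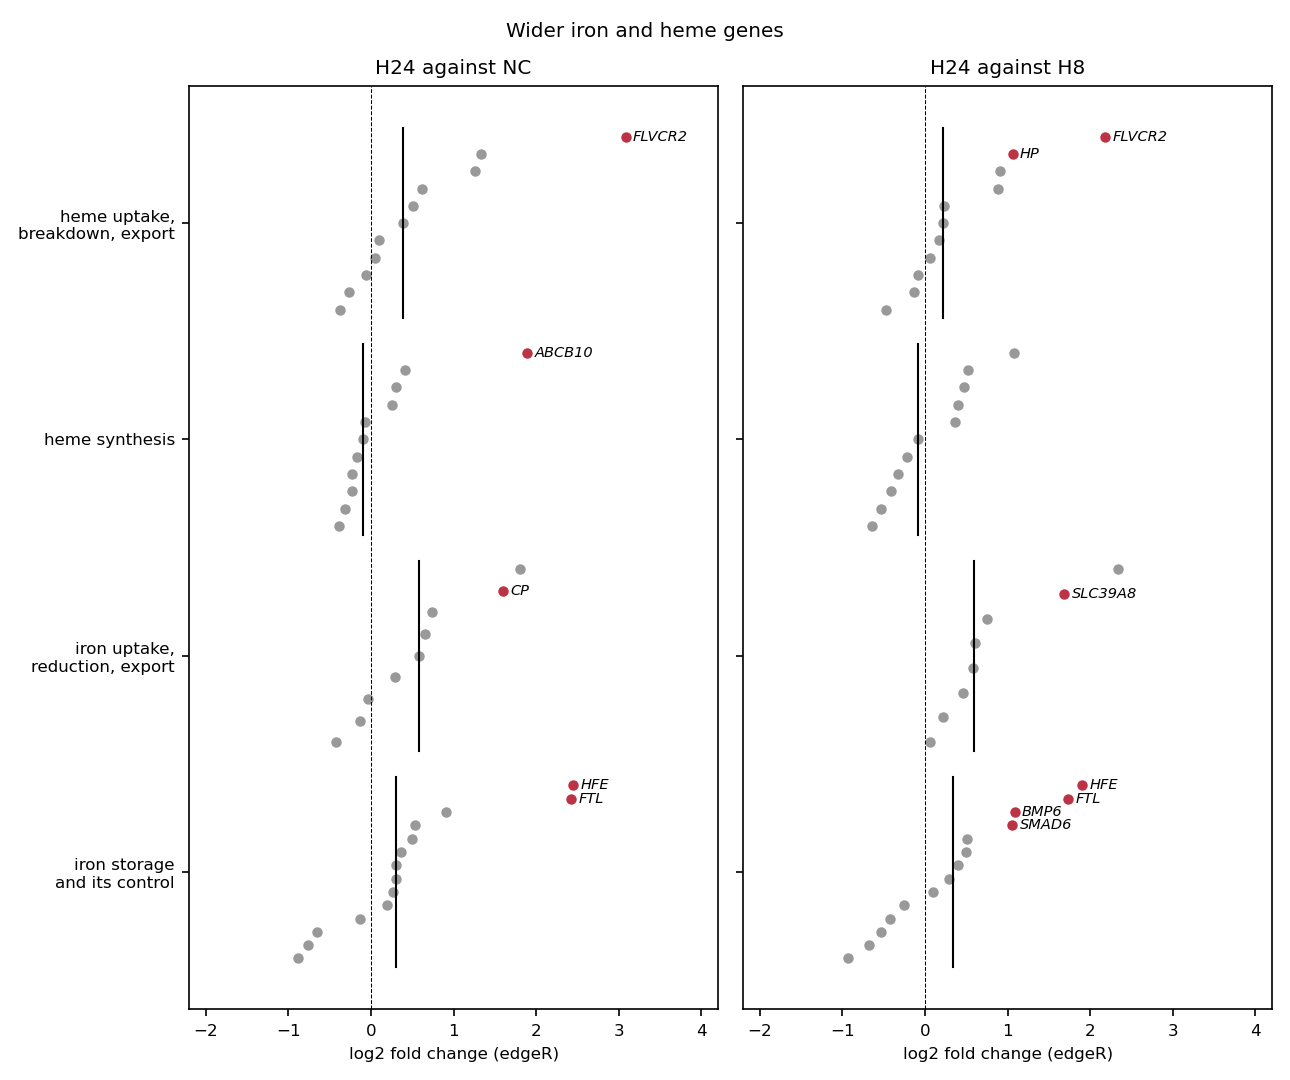
Log2 fold changes (x axis) of the tested genes of 4 wider iron and heme lists in H24 against NC and H24 against H8, 1 dot a gene, with called genes in red and named and the list median as a line. FLVCR2 (3.08), HFE (2.45) and FTL (2.42) lie farthest to the right in H24 against NC.

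FTL encodes the ferritin light chain, which helps to build the iron core. Its FPKM was 506, 527 and 348 in NC, 709, 677 and 558 in H8, and 1024, 897 and 5573 in H24. The 3 groups did not overlap. It was called higher in H24 against NC (log2 fold change 2.42, SE 0.76, adjusted p = 0.242, edgeR's quasi-likelihood test), and without H24 replicate 3 it was still called, at 1.03. In H24 against H8 it was 1.74 (SE 0.73, adjusted p = 0.363), a call that was lost without H24 replicate 3 (0.39). Between H8 and NC it was 0.63 (SE 0.22, adjusted p = 0.271), below the threshold on the fold change. The ratio of FTH1 to FTL in FPKM, looked at after the values were seen, was 5.54, 4.27 and 6.61 in NC, 3.75, 3.55 and 4.50 in H8, and 2.96, 2.93 and 2.07 in H24. All H24 libraries were below all NC and all H8 libraries (exact permutation test, two-sided, p = 0.1 in both, the smallest possible), and H8 overlapped with NC (p = 0.2).

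**Figure D5:**
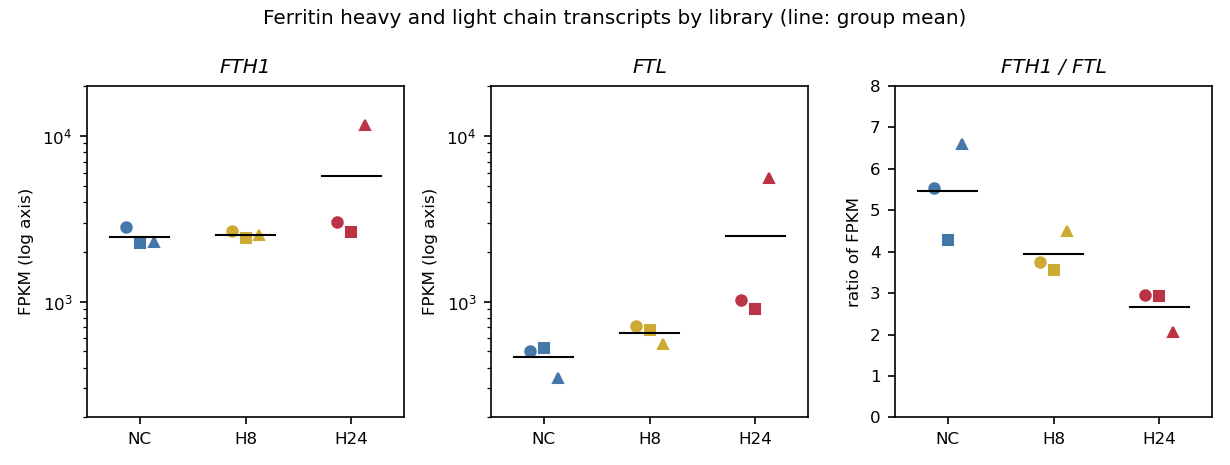
FPKM of FTH1 and FTL (log axes) and their ratio (linear axis) in each library, with the group mean as a line. The ratio lies between 4.27 and 6.61 in NC and between 2.07 and 2.96 in H24, without overlap.

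The genes whose profiles were most like those of the list were sought by Pearson's r of log2(FPKM + 0.1) over the 9 libraries, which share the same pigs, among named genes whose mean FPKM reached 1. These are descriptions, with no test. For CD163 they were MARCH1 (r = 0.99) and PTAFR (0.98), and for SLC11A1 PML (0.99) and JAK3 (0.98). STEAP3 was most like PARVB (0.97) and STARD8 (0.96), TFRC like XPOT (0.98) and MBTPS2 (0.95), and SLC40A1 like ACSL4 (0.95) and UBD (0.94). STEAP4 was most like LITAF (0.96) and TNFRSF6B (0.95), and HPX like ZNHIT2 (0.95) and VMAC (0.91). For these 7 genes, r stayed between 0.89 and 0.99 without H24 replicate 3. For FTH1, MPV17L2 and DGKZ (both 0.99) dropped to 0.82 and 0.74 over the other 8 libraries, so that this likeness rests largely on that library.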

How the data were processed

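RNA of the abdominal aorta of Tibetan minipigs was sequenced with paired ends as 9 poly(A) libraries, 3 in each of NC, H8 and H24. Per the study's methods, RNA had a RIN above 7, and the authors mapped reads to Sscrofa11.1 with HISAT 2.0 and estimated expression with StringTie 1.3.0. The processing notes of the submitters also name Bowtie 0.12.2. The deposited table gives FPKM and whole-number estimated counts per gene, both made by the authors per library. How the counts were derived is not given in the sources used here. It held 0 other columns of per-sample values. A phrase in the extraction protocol mentions adipose tissue, while the tissue label is abdominal aorta.

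The estimated counts were tested as whole numbers with edgeR 4.0.16 in R 4.3.3 (TMM scaling, quasi-likelihood test, the 6 libraries of each comparison) where mean FPKM reached 0.1. Standard errors were taken as the log2 fold change divided by the square root of F. A call required a log2 fold change above 1 or below -1 and p under 0.05, the thresholds of the study, and Benjamini-Hochberg adjusted p-values were computed over all tested genes. Exact permutation tests used log2(FPKM + 0.1) for single genes and the log2 of the ratio, with nothing added, for ratios. The fit was tested on simulated data. Alternatives used DESeq2 1.42.0, limma 3.58.1 on log2(FPKM + 0.1) or log2(FPKM + 1), other scalings and filters, 1 fit of all libraries, summed rows and each library left out.

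The members and lists were chosen with earlier results of these data known. The text names the members, the called genes of the 4 wider lists (at most 4 per list and direction, by p) and, per member, the 2 genes of closest profile. BLVRB, HMOX2, the genes too low to be tested and the marker genes were named outside this rule. No pair of libraries agreed within sampling noise (lowest chi-square per degree of freedom 182). Per the study's methods, 3 of the 5 pigs of a group were sequenced, which is stated for NC and H24. For H8 the sources used here do not say that the libraries came from separate pigs, so its p-values measure the spread between these samples. SLC39A14 was left out because gene name and identifier disagreed.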

Additional observations from a re-analysis of the deposited data

Results flagged for a closer look

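For 3 of the genes, H24 against H8 passed the thresholds of the study before adjustment. No controls fed for 8 weeks were analysed, so duration of diet, age and time of sampling cannot be told apart in it. Each comparison was fitted on its own 6 libraries. The difference between the 2 fold changes against NC is therefore close to the value of H24 against H8 but not equal to it. The log2 difference was 2.48 for CD163, 2.99 for SLC11A1 and 2.39 for STEAP3 by the thresholds on the unadjusted p of edgeR, and 0 of the 3 passed after adjustment (adjusted p = 0.343, 0.336 and 0.286). For CD163 the H24 and H8 libraries overlapped, and the call was lost without H24 replicate 1, H24 replicate 3, H8 replicate 2 or H8 replicate 3. The log2 fold changes against NC were 3.80 and 1.27 for CD163, 4.51 and 1.48 for SLC11A1, and 1.59 and -0.83 for STEAP3, in H24 and H8, respectively. In groups of 3 libraries, no single library was tested for standing apart from its group.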

How the results depend on the processing

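Of 378 values of single genes under an alternative, 339 kept their direction and their side of the thresholds, 16 passed only under the alternative, 11 passed no longer and 12 changed sign. For H8 against NC, where 0 of the 7 genes were called, 2 were called with DESeq2 (CD163 and HPX) and 1 each (HPX) with scaling to library size only, with limma on log2(FPKM + 0.1) and with the replicate block, and 0 to 2 when a library was left out. The 4 calls in H24 against NC became 3 to 5 and the 3 in H24 against H8 became 2 to 4 with a library left out. Of the wider lists, the 1 call in H8 against NC became 0 with library size only, with limma at either pseudocount and with the replicate block, and 0 to 2 with a library left out. The 5 in H24 against NC became 3 with limma on log2(FPKM + 1) and 3 with the replicate block, and 3 to 7 with a library left out. The 7 in H24 against H8 became 4 with the replicate block and 1 to 6 with a library left out, the lowest without H8 replicate 2. Same-numbered libraries had correlations of -0.08 to 0.10 in their deviations, so the numbers were not taken to pair the pigs.

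Signs changed for SLC40A1 in H8 against NC without NC replicate 3 (0.13), H8 replicate 1 (0.16) or H8 replicate 3 (0.11), over a range from -0.42 to 0.16 with a library left out. STEAP4 in H8 against NC was at 0.069 with the replicate block and ranged from -2.10 to 1.95 with a library left out. It ranged from -0.80 to 3.48 in H24 against NC and from -0.48 to 3.27 in H24 against H8, each time lowest without H24 replicate 3. FTH1 in H24 against H8 ranged from -0.0081 to 1.31, lowest without H24 replicate 3. HPX in H24 against H8 ranged from -0.97 to 0.40, above 0 without H8 replicate 3 or H24 replicate 1. The cause was not tested.

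Scaling to library size only moved the median of all genes to -0.13 in H8 against NC and 0.24 in H24 against H8, with 576 higher and 459 lower calls in the former and 1447 and 290 in the latter. Over all genes, 733 higher and 326 lower calls in H8 against NC became 454 and 505 with limma on log2(FPKM + 0.1), and 202 and 141 on log2(FPKM + 1). With the latter, 1475 and 225 in H24 against NC became 714 and 141, and 1068 and 451 in H24 against H8 became 517 and 177. A mean FPKM of at least 1 left STEAP4 untested. It also left SLC11A1 and TFRC untested in H8 against NC, and HPX in H24 against H8.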
